A study of Mus musculus with 9 samples.

Results

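The Eph receptors and their ephrin ligands, the netrins and their receptors, and the Slits and their Robo receptors were examined as 1 set of guidance genes in a Pum2 immunoprecipitation from mouse cortex. Of 37 genes listed, 36 had a feature of their own on the array, among 22180 named genes in all, and Ephb2 was not analysed here. A gene was read from the feature that carries its symbol alone, and Ephb1, with 2 such features, from the one with the highest mean over the arrays. Cortices came from wild-type CD1 embryos at embryonic day 12 or 13, and the labels name no transgene or treatment in any group. The 3 kinds of RNA were what a rabbit antibody to Pumilio2 precipitated, what normal rabbit IgG precipitated, and total input RNA with no antibody, with 3 biological replicates each and 9 Mouse Gene 2.0 ST arrays in all. The tissue was whole cortex, so each array mixes precursors, young neurons, vessels and other cells.

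Pum2 is a Pumilio-family protein that binds short motifs in messenger RNAs and represses their translation. Eph receptors are tyrosine kinases of the cell surface and ephrins are their membrane-bound ligands, anchored by a lipid in the A class and spanning the membrane in the B class, so the signal passes where cells touch. Netrins are secreted or matrix proteins that attract axons through Dcc and repel them through the Unc5 receptors, and Slits are secreted repellents read by Robo receptors. In developing cortex these families guide axons, sort cells at boundaries and act on precursors, and some members also pattern blood vessels.

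All values are log2 signals, so a difference of 1 is a doubling, and each is relative to the other transcripts of an array. Genes were tested with limma over all 22180 genes and were said to pass at a Benjamini-Hochberg adjusted p under 0.05. Across genes, which are not independent replicates, arrays of 1 group correlated with r of 0.994 to 0.996 and arrays of different groups with r of 0.977 to 0.989. All 9 measured marker genes of cortex, such as Emx1, Pax6 and Tbr1, lay above the median of all genes. Of the guidance genes 30 had a mean at or above that median of 6.08 and 6 lay below it, namely Epha1, Epha2, Epha6, Epha8, Epha10 and Ntn1. The 9 arrays do not tell fewer cells of a type from less RNA per cell.

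**Figure D1:**
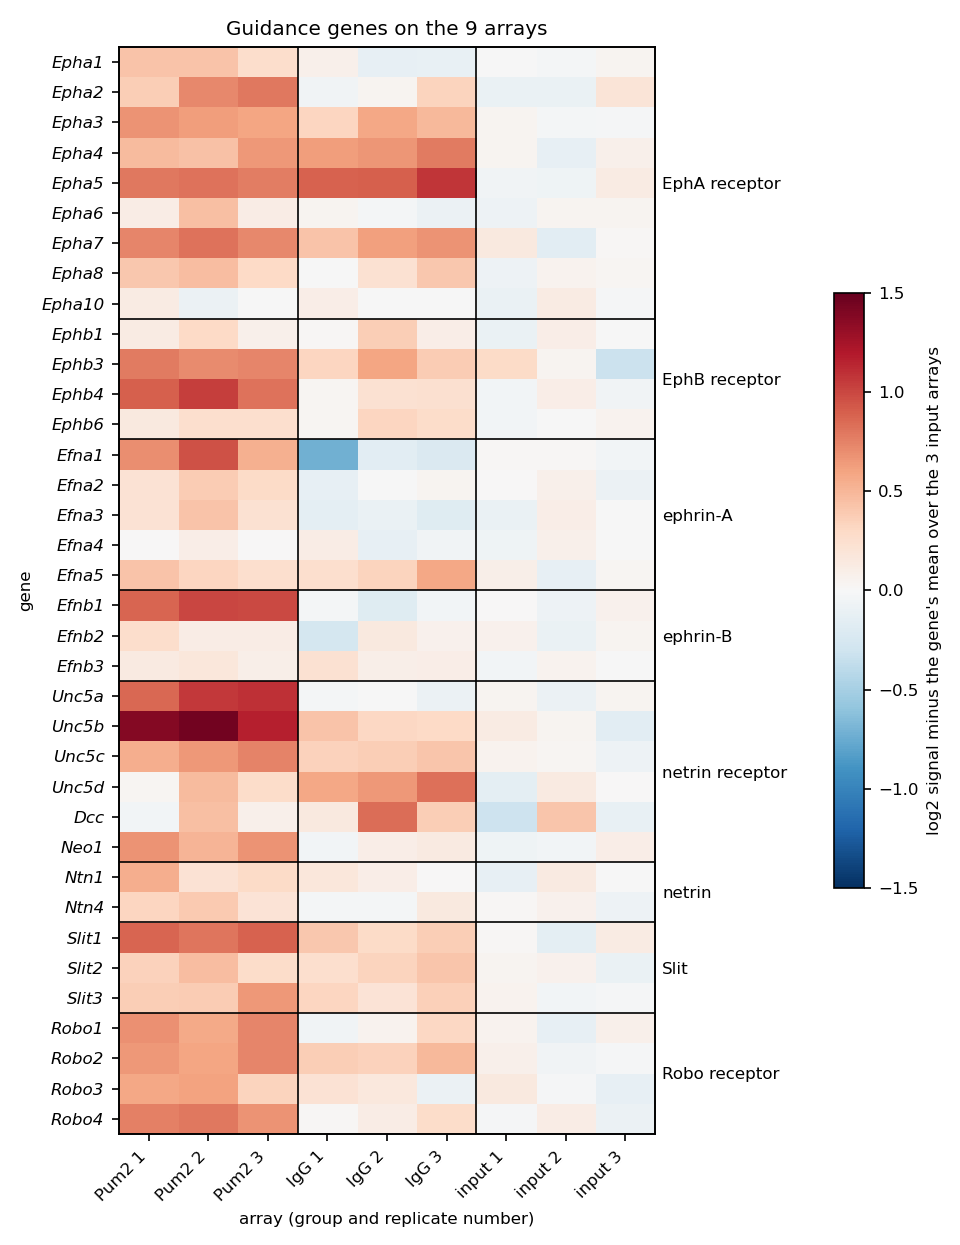
Each row is 1 of the 36 guidance genes, grouped by family, and each column is 1 of the 9 arrays, with Pum2 precipitates on the left, IgG precipitates in the middle and input on the right. Colour gives the log2 signal minus the mean of that gene over the 3 input arrays, and Unc5b, Unc5a and Efnb1 are the darkest red in the Pum2 columns while Epha5 and Unc5d are red in the IgG columns too.

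Against IgG, the background of the precipitation, 17 of the 36 guidance genes were higher with Pum2 and 1, Unc5d, was lower (limma, adjusted p under 0.05). Among all genes 19.4% were higher and 11.4% lower. The median log2 difference was 0.26 over the guidance genes and 0.04 over all genes. Brighter genes passed more often, and most guidance genes are bright. In a fit of only the genes at or above the median level, 39.2% of all genes were higher and 21.0% lower, with a median of 0.12, beside 15 higher and 1 lower of the 30 guidance genes at that level. The members spread widely, with extremes of -0.42 for Unc5d and 1.09 for Efna1. Centring the arrays on brighter genes left 13 guidance genes higher and 1 lower, and running quantile normalization again left 13 higher and 2 lower. In that order, these scalings gave 13.9% and 15.7% of all genes higher, and 15.8% and 13.6% lower. Of all genes that passed, 63.0% were higher, against 46.9% and 53.5% with those scalings. For 23 of the 36 the 3 Pum2 arrays lay above the 3 IgG arrays and for 2, Epha5 and Unc5d, below them, against 25.9% and 15.4% of all genes. Likewise, in 23 the Pum2 arrays lay above all 6 IgG and input arrays and in 0 below them, against 19.5% and 10.2% of all genes. These shares of separated arrays were not counted for the brighter genes alone.

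**Figure D2:**
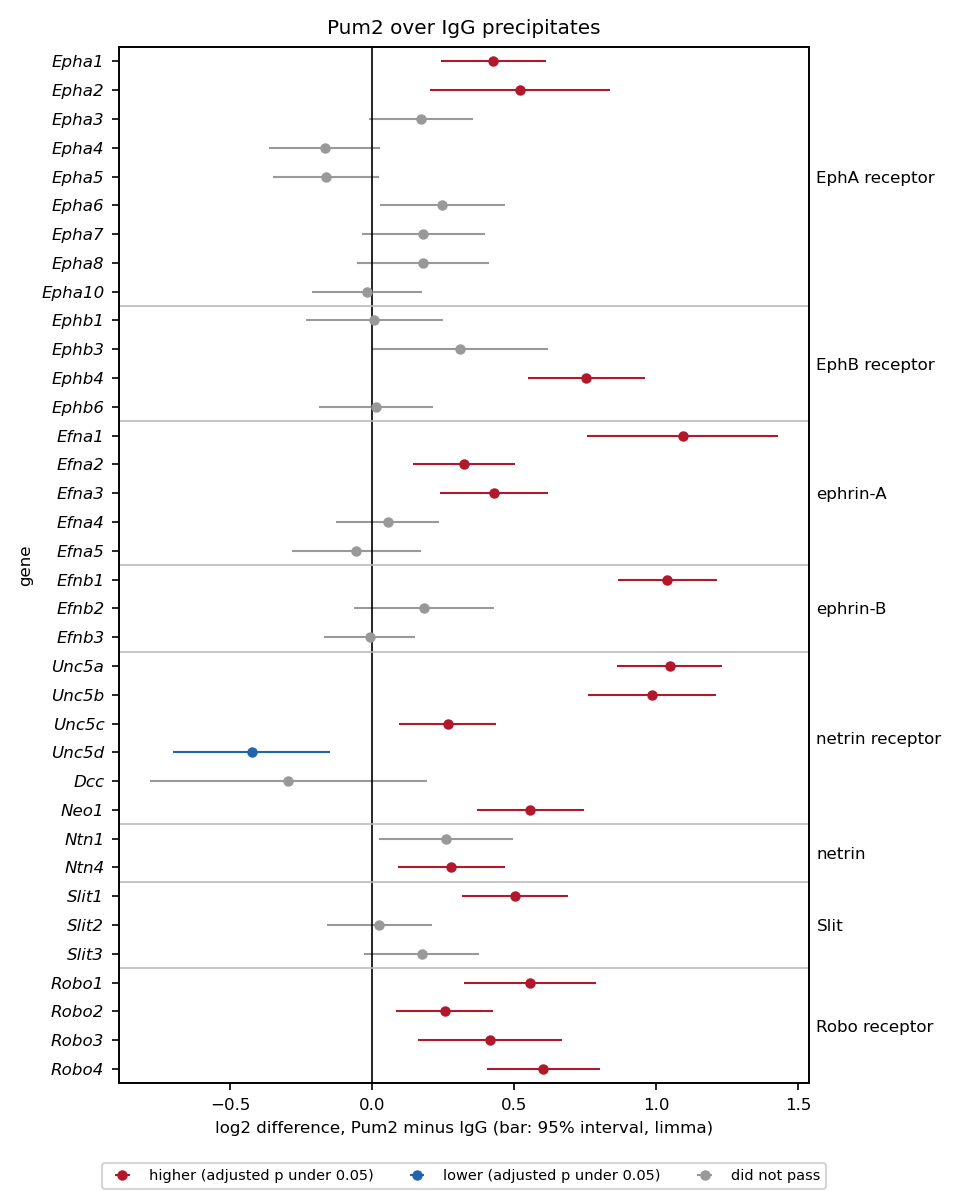
Points give the log2 difference between Pum2 and IgG precipitates for each guidance gene (x axis) by family (y axis), and bars give limma's 95% interval from 3 arrays per group. Efna1, Efnb1, Unc5a and Unc5b stand near 1, Unc5d lies below 0, and grey points did not pass the test.

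Among the ephrin ligands, 4 of 8 rose with Pum2 over IgG, beside 19.4% of all genes and 39.2% of genes at or above the median level. The ephrins lay above that level. Efna1 and Efnb1 were about 2 times as high as in IgG. Efna1, an A-class ephrin known from epithelium and vessels, had log2 signals of 8.10, 8.36 and 7.94 in Pum2 precipitates, 6.69, 7.24 and 7.19 in IgG precipitates and 7.43, 7.43 and 7.36 in input. Its Pum2 arrays lay above all others and its IgG arrays below all others. The difference was 1.09 ± 0.15 over IgG (SE, 2.13-fold, adjusted p = 0.000378) and 0.73 ± 0.15 over input (adjusted p = 0.00336), while IgG over input was -0.36 ± 0.15 and did not pass (adjusted p = 0.134). It ranked 83 of 22180 genes in Pum2 over IgG. Efnb1, a B-class ephrin on the X chromosome that keeps cortical precursors from early differentiation, had 12.06, 12.19 and 12.18 in Pum2 precipitates, 11.16, 11.01 and 11.15 in IgG precipitates and 11.20, 11.11 and 11.26 in input. Here IgG and input overlapped and Pum2 stood clear of both. Its difference was 1.04 ± 0.08 over IgG (2.06-fold, adjusted p = 1.2e-05) and 0.95 ± 0.08 over input (adjusted p = 1.02e-05).

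The other ephrins moved less or did not pass. Efna2, a ligand of retinal and cortical maps, had 10.43, 10.59 and 10.50 in Pum2 precipitates, 10.09, 10.21 and 10.25 in IgG precipitates and 10.22, 10.29 and 10.12 in input, a difference of 0.33 ± 0.08 over IgG (adjusted p = 0.0114). Efna3 had 9.42, 9.63 and 9.43 in Pum2 precipitates, 9.05, 9.11 and 9.03 in IgG precipitates and 9.11, 9.31 and 9.20 in input, a difference of 0.43 ± 0.09 over IgG (adjusted p = 0.00342). In both genes the Pum2 arrays were above the other 6, by far less than in Efna1. Efna4 differed from IgG by 0.05, with a 95% interval of -0.13 to 0.24 (adjusted p = 0.677). Efna5, which guides thalamic axons and places cortical areas, differed by -0.06, with an interval of -0.28 to 0.17 (adjusted p = 0.744). Efnb2, the arterial partner of Ephb4, had 11.18, 11.03 and 11.03 in Pum2 precipitates, 10.65, 11.06 and 10.98 in IgG precipitates and 10.98, 10.81 and 10.95 in input, so that Pum2 and IgG overlapped. Efnb3, a midline barrier to corticospinal axons, spanned 9.16 to 9.24 in Pum2 precipitates, 9.16 to 9.30 in IgG precipitates and 9.03 to 9.13 in input. This B-class pair differed by 0.18 and -0.01, with intervals of -0.06 to 0.43 and -0.17 to 0.15 (adjusted p = 0.257 and 0.951). So the interval of Efnb1 lay wholly above those of its B-class relatives, although a difference between genes was not tested. The rise of Efna2 over IgG did not pass with quantile normalization run again (0.21).

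Of the 13 Eph receptors measured, 3 rose over IgG, namely Ephb4, Epha1 and Epha2. This is 23.1%, near the 19.4% of all genes. At or above the median level, where 39.2% of genes were higher, Ephb4 was the only Eph receptor that rose. Ephb4, the venous receptor of Efnb2, had 9.03, 9.17 and 8.95 in Pum2 precipitates, 8.16, 8.36 and 8.37 in IgG precipitates and 8.08, 8.23 and 8.08 in input. The Pum2 arrays did not overlap the others, and the difference was 0.76 ± 0.09 over IgG (1.69-fold, adjusted p = 0.000176) and 0.92 ± 0.09 over input (1.89-fold, adjusted p = 3.22e-05). Epha1 had 6.31, 6.31 and 6.15 in Pum2 precipitates, 5.96, 5.76 and 5.77 in IgG precipitates and 5.88, 5.85 and 5.92 in input (0.43 ± 0.08 over IgG, adjusted p = 0.00291). Epha2, a receptor known from epithelium, had 6.0, 6.36 and 6.43 in Pum2 precipitates, 5.58, 5.68 and 5.97 in IgG precipitates and 5.53, 5.54 and 5.84 in input (0.52 ± 0.14 over IgG, adjusted p = 0.0184). Both A-class receptors lay near the median of all genes, and the top IgG array of Epha2 lay just below its lowest Pum2 array. Epha2 no longer passed when any 1 of 4 arrays was left out, these being Pum2 replicates 2 and 3 and IgG replicates 1 and 2 (0.44 to 0.49).

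In Epha5, Epha4, Epha3 and Epha7 both precipitates were higher than input, and Pum2 over IgG did not pass. Epha5, which reads ephrin-A gradients in cortical and thalamic maps, had 10.19, 10.21 and 10.16 in Pum2 precipitates, 10.28, 10.30 and 10.47 in IgG precipitates and 9.34, 9.33 and 9.52 in input. Both precipitates stood clear above input, and Pum2 lay just below IgG. Epha5 exceeded input by 0.79 ± 0.08 with Pum2 (adjusted p = 4.4e-05) and by 0.95 ± 0.08 with IgG (adjusted p = 0.000151), and Pum2 over IgG was -0.16, with an interval of -0.35 to 0.02 (adjusted p = 0.182). It passed as lower than in IgG after quantile normalization was run again (-0.27, adjusted p = 0.0307). Epha4, which binds ephrins of both classes and guides corticospinal axons, had 11.47, 11.43 and 11.64 in Pum2 precipitates, 11.62, 11.66 and 11.77 in IgG precipitates and 11.03, 10.88 and 11.07 in input. Its level exceeded that in input by 0.52 ± 0.09 with Pum2 (adjusted p = 0.000948) and by 0.69 ± 0.09 with IgG (adjusted p = 0.000627), and Pum2 and IgG overlapped (-0.17, interval -0.36 to 0.03). Epha3, a receptor of retinal and forebrain axons, had 10.31, 10.26 and 10.23 in Pum2 precipitates, 9.95, 10.22 and 10.12 in IgG precipitates and 9.68, 9.61 and 9.62 in input. It was likewise above input in both precipitates, by 0.63 with Pum2 (adjusted p = 0.000172) and 0.46 with IgG (adjusted p = 0.00351). Epha7, present on cortical precursors, had 8.99, 9.07 and 8.98 in Pum2 precipitates, 8.69, 8.88 and 8.94 in IgG precipitates and 8.40, 8.11 and 8.27 in input. It stood above input by 0.76 with Pum2 (adjusted p = 0.000172) and 0.57 with IgG (adjusted p = 0.00284). Pum2 over IgG was 0.17 for Epha3 and 0.18 for Epha7, and neither passed (adjusted p = 0.149 and 0.204).

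Among the remaining receptors, Ephb3, a receptor of commissural axons, had 7.18, 7.11 and 7.13 in Pum2 precipitates, 6.72, 6.99 and 6.78 in IgG precipitates and 6.69, 6.44 and 6.07 in input. Its input arrays were the most scattered of any Eph receptor, and it rose over input by 0.74 ± 0.14 (adjusted p = 0.00193) but did not pass over IgG (0.31, interval from just below 0 to 0.62, adjusted p = 0.128). That comparison did pass when input was kept out of the fit (adjusted p = 0.0355) or without input replicate 3 (0.31). Epha8 had 6.01, 6.06 and 5.89 in Pum2 precipitates, 5.60, 5.82 and 6.0 in IgG precipitates and 5.52, 5.66 and 5.62 in input, the precipitates overlapping. It rose over input by 0.39 ± 0.10 (adjusted p = 0.0147), a call lost without input replicate 1 or Pum2 replicate 2 (0.35 each). Epha6, Epha10, Ephb1 and Ephb6 passed in none of the 3 comparisons. Of these, Epha10 and Ephb6 lack an active kinase. Their differences over IgG were 0.25, -0.02, 0.01 and 0.01, and those of Ephb1 and Ephb6 were below 0 under both other scalings. The second feature of Ephb1 read only 4.89 to 4.96 in Pum2 precipitates, 4.94 to 5.11 in IgG precipitates and 4.73 to 4.99 in input.

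In the netrin system 4 of 6 receptors rose over IgG and 1, Unc5d, fell. Beside this, 19.4% of all genes were higher and 11.4% lower, and 39.2% and 21.0% of genes at or above the median level. The 6 receptors lay above that level. Unc5a, a receptor that turns netrin into a repellent, had 7.87, 8.07 and 8.10 in Pum2 precipitates, 6.97, 7.01 and 6.92 in IgG precipitates and 7.05, 6.92 and 7.05 in input. IgG and input coincided, and the Pum2 arrays lay about 1 log2 unit above them (1.05 ± 0.08 over IgG, 2.07-fold, adjusted p = 1.59e-05, and 1.01 ± 0.08 over input, 2.01-fold, adjusted p = 1.04e-05). Unc5b, the member of the family known from blood vessels, had 8.40, 8.46 and 8.19 in Pum2 precipitates, 7.45, 7.32 and 7.31 in IgG precipitates and 7.14, 7.05 and 6.85 in input. Here the 3 groups formed steps, with a difference of 0.99 ± 0.10 for Pum2 over IgG (1.98-fold, adjusted p = 6.27e-05), 1.33 ± 0.10 for Pum2 over input (2.52-fold, adjusted p = 5.94e-06) and 0.35 ± 0.10 for IgG over input (adjusted p = 0.0391). With rank 16 of 22180 genes in Pum2 over input it was the guidance gene farthest from input.

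Unc5c, a receptor of cerebellar and spinal axons, had 6.85, 6.95 and 7.05 in Pum2 precipitates, 6.65, 6.68 and 6.72 in IgG precipitates and 6.35, 6.33 and 6.23 in input, again in steps (0.27 ± 0.08 over IgG, adjusted p = 0.0239). Omitting Pum2 replicate 2 or 3 or IgG replicate 1 or 2 took Unc5c out of the call (0.22 to 0.27), as did both other scalings (0.17 and 0.21). Neo1, which encodes neogenin, a relative of Dcc that also reads repulsive guidance molecules, had 10.38, 10.22 and 10.38 in Pum2 precipitates, 9.67, 9.80 and 9.84 in IgG precipitates and 9.64, 9.66 and 9.81 in input (0.56 ± 0.08 over IgG, 1.47-fold, adjusted p = 0.000665). Only the Pum2 arrays of Neo1 stood apart. Unc5d, a receptor of migrating cortical neurons, had 8.24, 8.68 and 8.47 in Pum2 precipitates, 8.78, 8.85 and 9.03 in IgG precipitates and 8.06, 8.34 and 8.21 in input. IgG was highest, Pum2 and input overlapped, and the difference was -0.42 ± 0.12 for Pum2 over IgG (0.746-fold, adjusted p = 0.0252) and 0.68 ± 0.12 for IgG over input (1.61-fold, adjusted p = 0.00396). Omitting Pum2 replicate 1 or 3 or IgG replicate 2 or 3 ended the call of Unc5d over IgG (-0.44 to -0.31).

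Dcc, the receptor through which netrin attracts axons, was the most scattered guidance gene. It had 10.43, 10.91 and 10.54 in Pum2 precipitates, 10.62, 11.31 and 10.84 in IgG precipitates and 10.16, 10.88 and 10.36 in input. Replicate 2 was the highest array of each group, and the groups overlapped (-0.29 for Pum2 over IgG, interval -0.78 to 0.19, adjusted p = 0.364). An alternative fit with a block for replicate number moved Dcc past the threshold, as lower with Pum2 than with IgG. Of the ligands, Ntn4, a netrin of basement membranes, had 8.08, 8.15 and 7.96 in Pum2 precipitates, 7.73, 7.72 and 7.90 in IgG precipitates and 7.78, 7.82 and 7.68 in input (0.28 ± 0.08 over IgG, adjusted p = 0.029). Ntn1, the classical netrin, had 6.33, 5.99 and 6.07 in Pum2 precipitates, 5.94, 5.87 and 5.78 in IgG precipitates and 5.65, 5.91 and 5.77 in input, and passed over input alone (0.35 ± 0.11, adjusted p = 0.0261, against 0.26 ± 0.11 over IgG, adjusted p = 0.0922). Both netrins differed little. Ntn4 over IgG needed Pum2 replicates 1 and 2 and IgG replicates 1 and 2 to pass (0.24 to 0.27 with 1 of them omitted), and did not pass under the other scalings (0.18 and 0.20). Over input it needed Pum2 replicates 1 and 2 and input replicate 3 (0.27 to 0.30 with 1 of them omitted). Ntn1 over input did not pass without input replicate 1, input replicate 3 or Pum2 replicate 1 (0.25 to 0.35), nor with centring on brighter genes (0.28).

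**Figure D3:**
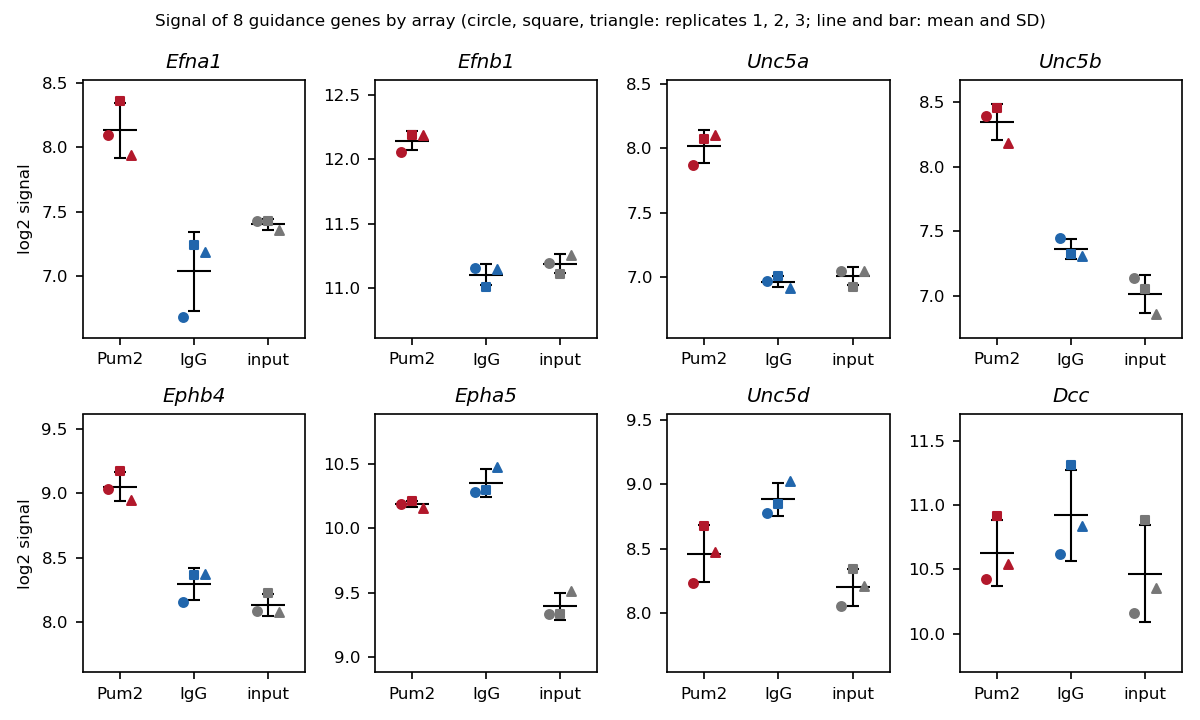
Log2 signal of 8 guidance genes on each array, with Pum2, IgG and input from left to right, symbols for replicates 1 to 3, and a line and bar for the mean and SD of 3 arrays. All panels span 2 log2 units: Pum2 stands alone in Efna1, Efnb1, Unc5a and Ephb4, both precipitates lie above input in Epha5, IgG is highest in Unc5d, and replicate 2 is the highest array of each group in Dcc.

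In the Slit-Robo system all 4 Robo receptors and 1 of 3 Slits rose over IgG, and all 7 genes rose over input. All 7 lay above the median level, and of genes at or above it 39.2% were higher over IgG and 41.1% over input. Over all genes the shares were 19.4% and 21.6%. Robo1, a receptor of cortical axons and precursors, had 9.90, 9.80 and 9.95 in Pum2 precipitates, 9.18, 9.28 and 9.53 in IgG precipitates and 9.28, 9.10 and 9.29 in input (0.56 ± 0.10 over IgG, 1.47-fold, adjusted p = 0.00237). Robo2, its close relative, had 10.53, 10.46 and 10.60 in Pum2 precipitates, 10.24, 10.22 and 10.36 in IgG precipitates and 9.95, 9.81 and 9.85 in input (0.26 ± 0.08 over IgG, adjusted p = 0.0283, and 0.40 ± 0.08 for IgG over input, adjusted p = 0.00508). In Robo1 the IgG arrays overlapped input, whereas in Robo2 they lay between input and Pum2. Robo3, which lets commissural axons cross the midline, had 7.14, 7.17 and 6.90 in Pum2 precipitates, 6.77, 6.72 and 6.47 in IgG precipitates and 6.71, 6.54 and 6.43 in input (0.42 ± 0.11 over IgG, adjusted p = 0.0184). Robo4, the Robo of endothelium, had 7.60, 7.64 and 7.52 in Pum2 precipitates, 6.86, 6.95 and 7.12 in IgG precipitates and 6.82, 6.96 and 6.76 in input (0.60 ± 0.09 over IgG, 1.52-fold, adjusted p = 0.000578). The calls of Robo1 and Robo4 over IgG held in all 18 alternatives. That of Robo2 was lost on omitting Pum2 replicate 1 or 3 or IgG replicate 1 or 2 (0.22 to 0.26) and under the other scalings (0.14 and 0.16). That of Robo3 was lost on omitting Pum2 replicate 1 or 2 or IgG replicate 3 (0.32 to 0.38) and with centring on brighter genes (0.32).

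Slit1, the Slit of brain and spinal cord, had 9.36, 9.29 and 9.37 in Pum2 precipitates, 8.89, 8.77 and 8.85 in IgG precipitates and 8.50, 8.34 and 8.61 in input. The 3 groups formed clear steps, with 0.50 ± 0.08 for Pum2 over IgG (1.42-fold, adjusted p = 0.00115), 0.85 ± 0.08 for Pum2 over input (1.81-fold, adjusted p = 2.75e-05) and 0.35 ± 0.08 for IgG over input (adjusted p = 0.0151). Slit2, a repellent of forebrain axons, had 8.49, 8.60 and 8.42 in Pum2 precipitates, 8.40, 8.47 and 8.56 in IgG precipitates and 8.18, 8.21 and 8.04 in input. It was higher than input by 0.36 ± 0.08 with Pum2 (adjusted p = 0.00644) and 0.34 ± 0.08 with IgG (adjusted p = 0.0189), with an interval of -0.16 to 0.21 between them. Slit3 had 6.58, 6.60 and 6.87 in Pum2 precipitates, 6.54, 6.42 and 6.56 in IgG precipitates and 6.27, 6.18 and 6.19 in input, with Pum2 just above IgG. It was higher than input by 0.47 ± 0.09 with Pum2 (adjusted p = 0.00231) and 0.29 ± 0.09 with IgG (adjusted p = 0.0499), and did not pass between them (0.18, adjusted p = 0.187). So Slit1 passed between the precipitates and its relatives did not, a difference between genes that was not tested. The IgG calls rest on few arrays. That of Slit1 was lost without input replicate 2 (0.28), that of Slit2 without input replicate 3 or IgG replicate 3 (0.28 and 0.29), and that of Slit3 in 13 of 18 alternatives, among them leaving out any array but Pum2 replicate 3 (0.27 to 0.34).

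Compared with input, 27 of the 36 guidance genes were higher with Pum2 and 0 lower by limma, with 0 lower also at an unadjusted p under 0.05. Among all genes 21.6% were higher and 13.1% lower. The 3 Pum2 arrays lay above the 3 input arrays in 31 of the 36, against 28.5% of all genes, a share not counted for brighter genes alone. Of genes at or above the median level 41.1% were higher with Pum2 than in input and 24.3% lower, beside 24 higher of 30 guidance genes. IgG precipitates, compared with the same input arrays, had 12 guidance genes higher and 0 lower by limma, and 1, Efna1, lower at an unadjusted p under 0.05. Among all genes 8.25% were higher and 9.72% lower in IgG over input. At or above the median level these shares were 18.8% and 22.8%, beside 13 higher of 30 guidance genes. The median difference of the guidance genes from input was 0.49 with Pum2 and 0.15 with IgG, against 0.07 and 0.02 over all genes. All 36 differences were above 0 with Pum2, although Efna4 and Epha10 were below 0 under both other scalings. The 2 comparisons share the input arrays, so their values are given gene by gene. With Pum2, 62.3% of all calls over input were higher, against 52.2% after centring on brighter genes.

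**Figure D4:**
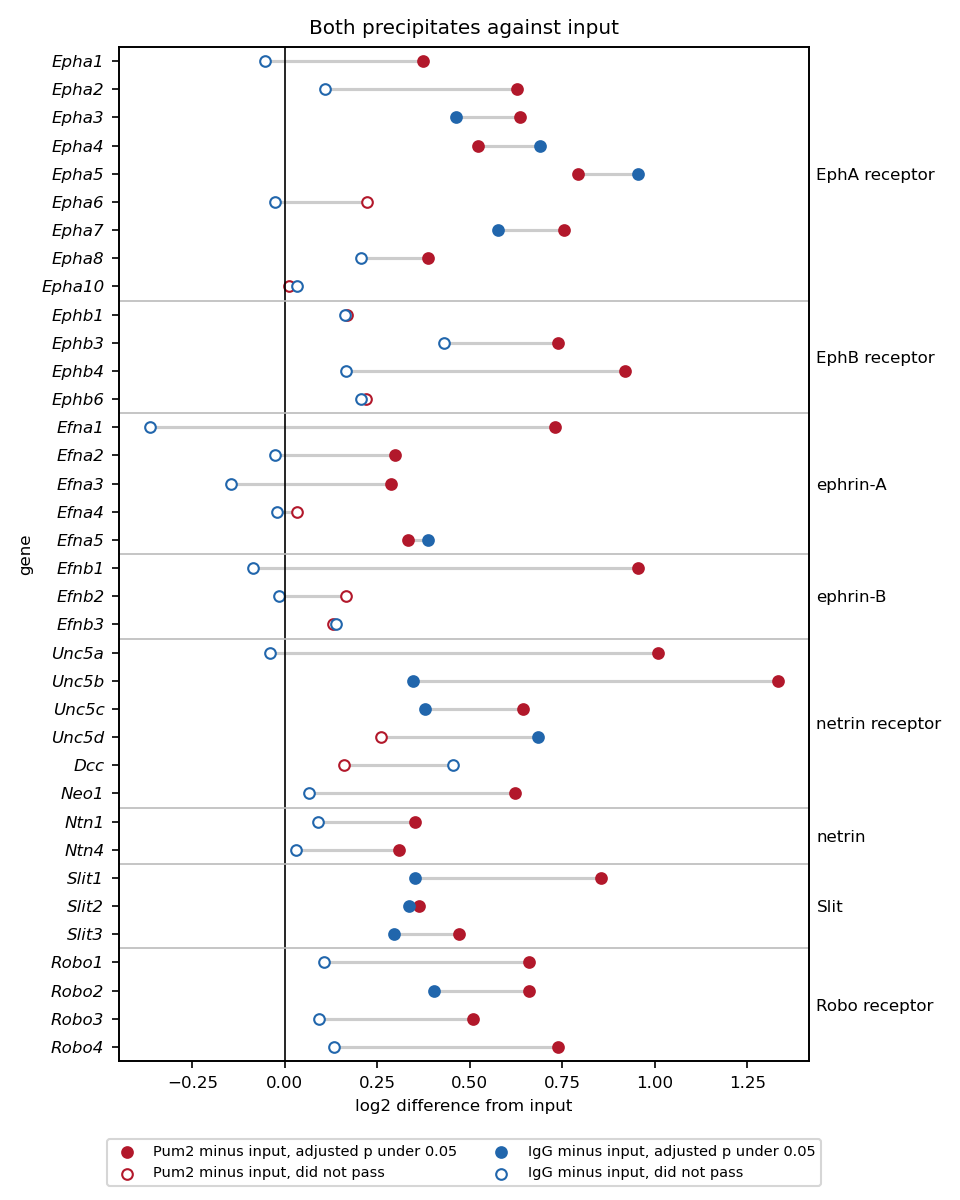
Each line joins the log2 difference from input of Pum2 precipitates (red) and of IgG precipitates (blue) for 1 guidance gene, with families on the y axis. Filled points passed at an adjusted p under 0.05: long lines mark Efna1, Efnb1, Unc5a, Unc5b and Ephb4, and blue lies to the right of red in Epha4, Epha5, Efna5, Unc5d and Dcc, as well as marginally in Epha10 and Efnb3.

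In IgG over input 8.25% of all genes were higher, and 18.8% of genes at or above the median level. By family, the genes higher in IgG precipitates than in input were 4 of 9 EphA receptors, all 3 Slits, 3 of 6 netrin receptors, 1 of 4 Robo receptors and 1 of 5 A-class ephrins. The last was Efna5, with 7.35, 7.24 and 7.18 in Pum2 precipitates, 7.17, 7.26 and 7.50 in IgG precipitates and 7.02, 6.81 and 6.95 in input. It was higher than input by 0.33 ± 0.10 with Pum2 (adjusted p = 0.0282) and by 0.39 ± 0.10 with IgG (adjusted p = 0.0248). Both calls were fragile. That of IgG ended without input replicate 2, input replicate 3 or IgG replicate 3 (0.29 to 0.40), and that of Pum2 without input replicate 2, input replicate 3, Pum2 replicate 1 or Pum2 replicate 2 (0.27 to 0.34) and under the other scalings (0.26 and 0.28). The rise of Unc5b in IgG ended in 8 of 18 alternatives, 6 of which left out an array (input replicates 2 and 3, any IgG replicate, or Pum2 replicate 1, 0.27 to 0.37). In Pum2 over input, Efna2 (0.30 ± 0.08, adjusted p = 0.0153) did not pass without input replicate 3 or Pum2 replicate 2 (0.25 and 0.26) or with quantile normalization run again (0.22). Efna3 (0.29 ± 0.09, adjusted p = 0.0249) did not pass without input replicate 1, input replicate 3 or Pum2 replicate 2 (0.22 to 0.28), nor under the other scalings (0.21 and 0.22). Conversely, Ephb6 passed over input without IgG replicate 1 (0.22 with Pum2 and 0.30 with IgG), and Unc5d with Pum2 over input without Pum2 replicate 1 (0.37). Ephb3 in IgG over input (0.43 ± 0.14, adjusted p = 0.0594) passed in 4 of 18 alternatives, and its values ran from 0.27 to 0.57 over all 18.

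Of 23 receptors 11 rose and 1 fell over IgG, with a median of 0.26, and of 13 ligands 6 rose, also with a median of 0.26. Against input, 17 receptors rose with Pum2, with a median of 0.63, and 10 ligands, with a median of 0.33. With IgG over input the medians were 0.21 for receptors, of which 8 rose, and 0.03 for ligands, of which 4 rose. Of all genes 19.4% were higher in Pum2 over IgG, 21.6% in Pum2 over input and 8.25% in IgG over input. At or above the median level these shares were 39.2%, 41.1% and 18.8%. Lower in Pum2 over IgG were 11.4% of all genes, and 21.0% at that level. Differences between the classes were not tested.

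Partner genes that act with these families or below them were described as lists, 62 of 68 genes being measured. Over IgG, 24 rose and 11 fell, with a median of 0.17. For comparison, 19.4% of all genes were higher and 11.4% lower, and 39.2% and 21.0% of genes at or above the median level. Of 22 partners of Ephs and ephrins 7 rose and 4 fell. The kinase genes Src and Abl1 rose by 1.03 ± 0.10 and 0.53 ± 0.09 (adjusted p = 4.23e-05 and 0.00156), while Chn1, a Rac regulator below Epha4, and Sipa1l1 fell, their differences being -0.61 ± 0.08 and -0.47 ± 0.08 (adjusted p = 0.000246 and 0.00151). Of 20 netrin partners 7 rose and 3 fell. Rgmb, a ligand of neogenin, and the netrin gene Ntn3 rose by 0.72 ± 0.09 and 0.75 ± 0.11, and the actin regulator genes Evl and Enah fell, with -0.80 ± 0.08 and -0.52 ± 0.07. Enah was higher in IgG precipitates than in input (0.44 ± 0.07, adjusted p = 0.00177), and with Pum2 it did not pass over input (-0.08).

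Of 14 Slit-Robo partners 8 rose and 3 fell over IgG. Sdc3 and Sdc1, syndecan genes whose heparan sulfate chains help Slit to bind Robo, rose by 1.09 ± 0.07 and 0.71 ± 0.07 (adjusted p = 8e-06 and 6.84e-05). Srgap1 and Srgap3, which encode GTPase regulators that bind Robo, fell by 0.63 each, with errors of 0.08 and 0.11 (adjusted p = 0.000339 and 0.00189). In IgG precipitates both transcripts exceeded their input level, by 0.64 ± 0.08 and 1.05 ± 0.11 (adjusted p = 0.000796 and 0.000296). With Pum2, Srgap3 also exceeded input (0.42 ± 0.11, adjusted p = 0.0152), and Srgap1 did not pass (0.01). Against input, 32 of the 62 partners rose with Pum2 and 6 fell, with a median of 0.24. Of all genes 21.6% were higher and 13.1% lower over input, and at or above the median level 41.1% and 24.3%. Trio, a gene used in Dcc signalling, rose by 0.94 ± 0.07 with Pum2 and by 0.65 ± 0.07 with IgG (adjusted p = 7.28e-06 and 0.000364), and Evl fell by 0.97 with Pum2 (adjusted p = 1.08e-05).

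Markers of other cells were counted in the same way. Their counts stand beside 19.4% of all genes higher over IgG and 11.4% lower, and 39.2% and 21.0% at or above the median level. Over input with Pum2 these shares were 21.6% and 13.1%, and 41.1% and 24.3%. Robo4, Ephb4, Unc5b and Efna1, which rose over IgG, are known from vessels, as is Efnb2, which did not pass (0.18, adjusted p = 0.257). Of 10 endothelial markers 4 rose (Cdh5, Tie1, Esam and Cldn5) and 1 fell (Egfl7) in Pum2 over IgG, with a median of 0.50. Their mean log2 signal was 7.75 to 7.84 in Pum2 precipitates, 7.29 to 7.64 in IgG precipitates and 7.25 to 7.41 in input, and all 10 lay above the median of all genes. Of 8 meningeal and mesenchymal markers 4 rose over IgG, with a mean of 7.86 to 7.92 in Pum2 precipitates, 7.40 to 7.63 in IgG precipitates and 7.20 to 7.29 in input. Of 7 microglial markers 2 rose over IgG (Csf1r and C1qa), and of 6 ganglionic eminence markers 1 rose (Dlx5) and 1 fell (Gad2). The 4 erythroid markers differed by -0.70 to 0.07 and did not pass. Over input, Pum2 precipitates had 7 of 10 endothelial markers higher and 1 lower, 8 of 8 meningeal and mesenchymal markers higher, and 3 of 4 erythroid markers lower (Hbb-bh1 and Hba-x with -1.17 each and Hbb-y with -0.36). Among 9 cortex markers 4 rose (Emx1, Neurog2, Tbr1 and Sox2) and 1 fell (Neurod6) in Pum2 over IgG. In Pum2 over input 6 of the 9 rose and 1, again Neurod6, fell. The part of cell types in the values of the guidance genes was not tested.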

How the data were processed

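The deposited table holds log2 signals of 41345 features, which the authors made with RMA in Affymetrix Expression Console, per the submitters' processing notes. Neither the software version nor the genome build is given in the sources used here. Per the labels' protocols, RNA from a RIP kit was amplified and labelled before hybridisation. No depth applies to arrays, and their number limits the precision. Names come from the platform's annotation, in which 23521 features carry 1 symbol, 1814 several and 16010 none given here. Of the 36 guidance genes, all 36 have the same symbol in RefSeq of GRCm38.p6. Where features shared a symbol, the one with the highest mean over 9 arrays stood for the gene, giving 22180 genes.

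A single linear model of the 9 arrays in 3 groups was fitted across all genes with limma 3.58.1 (R 4.3.3), without a replicate block, with Benjamini-Hochberg adjustment over 22180 genes and 6 residual degrees of freedom. Differences are on the log2 scale and ± gives their standard error, with n = 3 arrays per group. With 3 arrays a group, the smallest p of an exact permutation test would be 0.1. P-values measure the spread between arrays labelled as biological replicates, whose separate preparation is not described. The pipeline was tested on simulated data. Members, lists and tests were chosen with earlier results of these data known. All members could be named, and of each partner list up to 2 genes with the highest and 2 with the lowest moderated t among those called. Array values are given for members that pass over IgG and for the member of each family farthest from 0 in a comparison, with a few relatives beside them. One partner list counts in the totals over all partners and is otherwise not reported here. Replicate numbers were checked as pairs. The 18 alternatives were quantile normalization run again, centring on genes at or above the median, a replicate block, a fit of only 2 groups, leaving out genes under the median, an intensity trend with a robust prior, the mean of a gene's features, all features, array weights, and leaving out each of the 9 arrays.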

Additional observations from a re-analysis of the deposited data

How the results depend on the processing

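Over IgG, the number of guidance genes that rose was 13 to 18 over the 18 alternatives, against 17 as reported, and over input 22 to 28 with Pum2, against 27, and 8 to 13 with IgG, against 12. Leaving out 1 array gave 13 to 18, 22 to 28 and 8 to 12. The number lower than IgG, 1 as reported, was 2 with quantile normalization run again and 2 with the replicate block, and 0 to 1 when 1 array was left out. No guidance gene past the threshold, in either fit, changed its direction in any of the 18 alternatives. Of the 18 calls over IgG 11 held in every alternative that gave a value, as did 21 of 27 in Pum2 over input and 7 of 12 in IgG over input. The 6 genes below the median level had 17 alternatives, since the fit of brighter genes leaves them out. The median difference over IgG was 0.16 with centring on brighter genes and 0.20 with quantile normalization. Same-numbered arrays of different groups deviated together with r of 0.00 to 0.14, and arrays with different numbers with r of -0.13 to 0.04. The same-numbered r was not above 0.1 in every pair, so the numbers were not taken as pairs. The replicate block gave 17, 27 and 12 genes higher. It moved Dcc past the threshold, as lower in Pum2 than in IgG (-0.29, adjusted p = 0.021) and higher in IgG than in input (0.45, adjusted p = 0.006), and Slit3 in IgG over input out of it. The table holds no background signal, so detection of the 6 guidance genes below the median of all genes could not be judged.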
